A study of Mus musculus with 8 samples.

Results

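The genes of the mitochondrial genome were taken as all genes that the deposited expression table places on chromosome MT, which gave 37 genes of 56748. They comprised the 13 protein genes, the 2 rRNA genes and the 22 tRNA genes, and all 37 had the same coordinates in the GRCm39 reference annotation. No measured value entered this rule, but the set was chosen with earlier results of these data known. The table held 8 libraries of poly(A)-captured RNA from 32D cells, a mouse myeloid line that depends on interleukin-3 (IL-3) for growth and that had been transduced with either Jak2WT or Jak2V617F. In each background, single-cell clones with intact glucose transporters (GLUT1/3 WT) were compared with clones in which Slc2a1 (GLUT1) and Slc2a3 (GLUT3) had been disrupted with CRISPR-Cas9 (GLUT1/3 dKO). Each of the 4 groups had 2 clones, numbered 1 and 3, so p-values measure the spread between clones and not between separately transduced lines. The clones of a background came from a line transduced earlier, so Jak2 genotype and other differences between the lines cannot be told apart. The authors list the same GLUT1 deletion for all dKO clones of a background, and whether these arose separately is not given. Before harvest, every clone was kept for 24 h in IL-3 (2 ng/ml), with glutamine at 1 mM and glucose at 5 mM.

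The mitochondrial genome encodes core subunits of the respiratory chain, of ATP synthase and the RNAs that translate them, while all other proteins of mitochondria come from nuclear genes. Both of its strands are copied by a dedicated RNA polymerase into long transcripts that are cut at the tRNAs that lie between the other genes, so that the levels of single mRNAs also depend on processing and decay. The heavy-strand transcripts give most mRNAs and both rRNAs, and the light-strand transcript gives mt-Nd6 and a few tRNAs.

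Recovered reads on genes ranged from 16846011 to 48884329 per library, and 382085 to 1068112 of them lay on the mitochondrial genome. Slc2a1 measured 46.6 ± 2.64 FPKM (fragments per kilobase of gene, scaled to library size; SD, n = 2) in Jak2WT GLUT1/3 WT against 9.32 ± 0.207 in Jak2WT dKO, and 58.5 ± 7.80 against 15.0 ± 3.21 in Jak2V617F. Slc2a3 measured 94.8 ± 4.12 against 32.8 ± 23.7 and 182 ± 22.8 against 36.0 ± 17.2. Jak2 measured 251 ± 11.1 FPKM in Jak2WT GLUT1/3 WT and 231 ± 18.1 in Jak2WT dKO. In Jak2V617F it was lower, at 140 ± 0.302 in GLUT1/3 WT and 159 ± 9.23 in dKO. The part of this Jak2 level in differences between backgrounds was not tested. Of 10 myeloid markers, 5 reached 1 FPKM in every library, while of the markers of granulocyte precursors Mpo, Elane, Ctsg and Cebpa were near or at 0 and Prtn3 measured 3.11 to 10.2 FPKM. The summed level of the 10 was 221 to 251 FPKM in Jak2WT GLUT1/3 WT, 163 to 200.4 in Jak2WT dKO, 197 to 201 in Jak2V617F GLUT1/3 WT and 89.1 to 92.5 in Jak2V617F dKO. The 6 mast cell and basophil markers summed to 202 to 218, 167 to 222, 156 to 164 and 121 to 162 FPKM in the same order of groups. Of these, Cpa3 measured 50.8 to 100.5 FPKM in Jak2WT and 0 to 1.67 in Jak2V617F, and Gata2 measured 123 and 124 in Jak2WT GLUT1/3 WT against 163 and 156 in Jak2V617F GLUT1/3 WT. The summed level of 8 erythroid markers was 94.0 to 112 FPKM in Jak2WT GLUT1/3 WT, 246 to 290.5 in Jak2WT dKO, 553 to 910.3 in Jak2V617F GLUT1/3 WT and 2582 to 4679 in Jak2V617F dKO, with 4 of the 8 at 1 FPKM or more in every library. The single markers did not all follow this sum. Hba-a1 ran from 46.7 to 2007 FPKM, whereas Gata1 measured 58.1 and 48.7 in Jak2V617F GLUT1/3 WT and 41.1 and 34.0 in dKO, Epor ran from 3.31 to 7.77 over all libraries and Alas2 stayed at or below 0.227. The part of these marker differences in the results below was not tested. In bulk RNA, a different mix of cell states and a different level per cell cannot be told apart.

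A share of the mitochondrial genome has a nearly perfect copy in the nuclear genome, and reads of the members inside it cannot all be told apart from reads of the copy. Of 30 nuclear matches with at least 85% identity, the longest lay at chr1:24650616-24655269 on the minus strand (GRCm39) and copied positions 6390 to 11042 of the mitochondrial genome. Over its 4654 bases, the copy was 99.936% identical. It differed by the substitutions A6393T in mt-Co1 and T9461C in mt-Nd3, where the mitochondrial base stands first and positions count along the mitochondrial reference, and by 1 inserted A in mt-Tr. The reference sequences around the mt-Nd3 substitution and around the insert are shown because they are all that separates the 2 copies over this stretch apart from its first bases. Capitals mark the differing base.
mitochondrial genome, mt-Nd3 start, 9441 to 9481: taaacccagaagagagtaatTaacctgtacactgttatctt
nuclear copy, chr1:24652178-24652218, minus strand: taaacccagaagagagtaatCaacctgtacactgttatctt
mitochondrial genome, mt-Tr, 9801 to 9840: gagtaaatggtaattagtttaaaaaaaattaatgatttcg
nuclear copy, chr1:24651818-24651858, minus strand: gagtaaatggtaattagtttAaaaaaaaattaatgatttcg

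In the reference genome, 4329 of the 16299 windows of 150 bases (26.6%), the length of one read, had an exact nuclear copy. All windows were unique for 5 of the 13 protein genes (mt-Nd1, mt-Nd2, mt-Nd5, mt-Nd6 and mt-Cytb) and for both rRNAs. The share of unique windows was 70.1% for mt-Co1, 55.7% for mt-Nd3, 42.6% for mt-Nd4, 20.9% for mt-Nd4l and 8.47% for mt-Co3. It was 0% for mt-Co2, mt-Atp8 and mt-Atp6. How the authors' counting treated reads with several places is not given in the sources used here, and the mitochondrial sequence of 32D itself was not read.

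The levels of the 13 protein genes lay in 2 separate ranges. mt-Co1, the catalytic subunit of complex IV, had the highest mean FPKM of all 56748 genes, 7641 over the 8 libraries. It was followed among the members by mt-Nd1 at 2193, mt-Cytb, the complex III subunit, at 1782, mt-Nd2 at 1255, mt-Nd5 at 1164, mt-Nd6 at 855 and mt-Nd4 at 659.7. The other 6 protein genes, all inside the copied stretch, had means of 95.4 FPKM for mt-Atp8, 80.0 for mt-Co2, 60.2 for mt-Atp6, 50.04 for mt-Co3, 21.3 for mt-Nd4l and 8.32 for mt-Nd3. The levels of these 6 genes did not overlap with those of the other 7 in any library. mt-Nd3 had the lowest level, and 55.7% of its windows were unique in the reference. Their uniqueness rests only on T9461C and the inserted A in mt-Tr. Whether the mitochondrial genome of these cells carries the reference bases at these places was not tested, so this share may not hold for them. The part of the nuclear copy in these levels was not tested. The sums of each pair given below cannot show it, since any reads dropped for having several places would be missing from both genes.

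**Figure D1:**
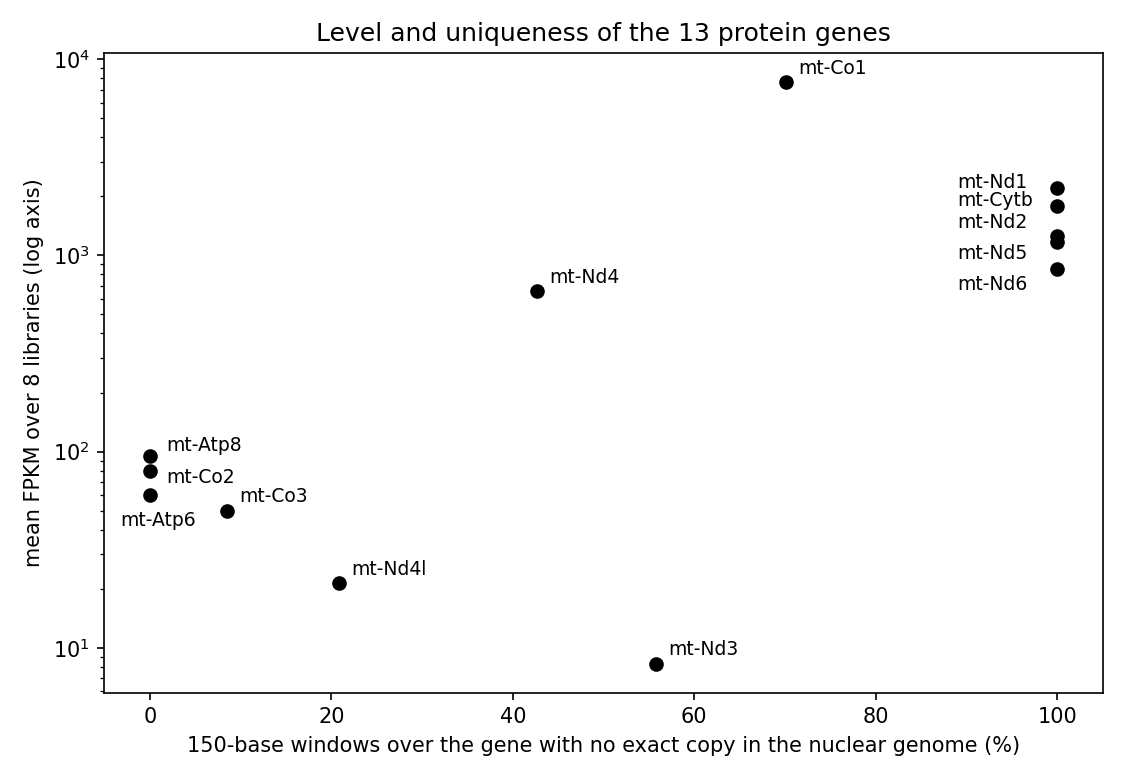
Mean FPKM over 8 libraries (log axis) of the 13 protein genes against the share of their 150-base windows that have no exact copy in the nuclear genome. The 3 genes without a unique window sit between 60.2 and 95.4 FPKM, and the 5 genes with only unique windows sit at 855 FPKM or more.

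The table also held 7 pseudogenes on the chromosome 1 copy, and these drew 55055 reads in all. Gm28438, the copy of mt-Nd3, held 7295 reads where mt-Nd3 held 693, or 88.4% to 93.1% of the reads of the pair in every library. Gm10925, the copy of mt-Atp6, held 59.0% to 68.6% of its pair, Gm10222 (mt-Nd4l) 55.9% to 72.2%, Gm28437 (mt-Co3) 42.3% to 57.0% and Gm28661 (mt-Co2) 37.0% to 56.0%. In contrast, Gm28439 held 1.38% to 2.03% of its pair with mt-Nd4, and Gm29216 held 0.0949% to 0.140% of its pair with mt-Co1. When the reads of each pair were summed, the pairs reached 146 FPKM for mt-Co2, 164 for mt-Atp6, 99.8 for mt-Co3, 95.5 for mt-Nd3 and 62.6 for mt-Nd4l, which was below every protein and rRNA gene outside the copied stretch. The 16 pseudogenes on other nuclear copies held 246 reads. None of the 7 was a copy of mt-Atp8.

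**Figure D2:**
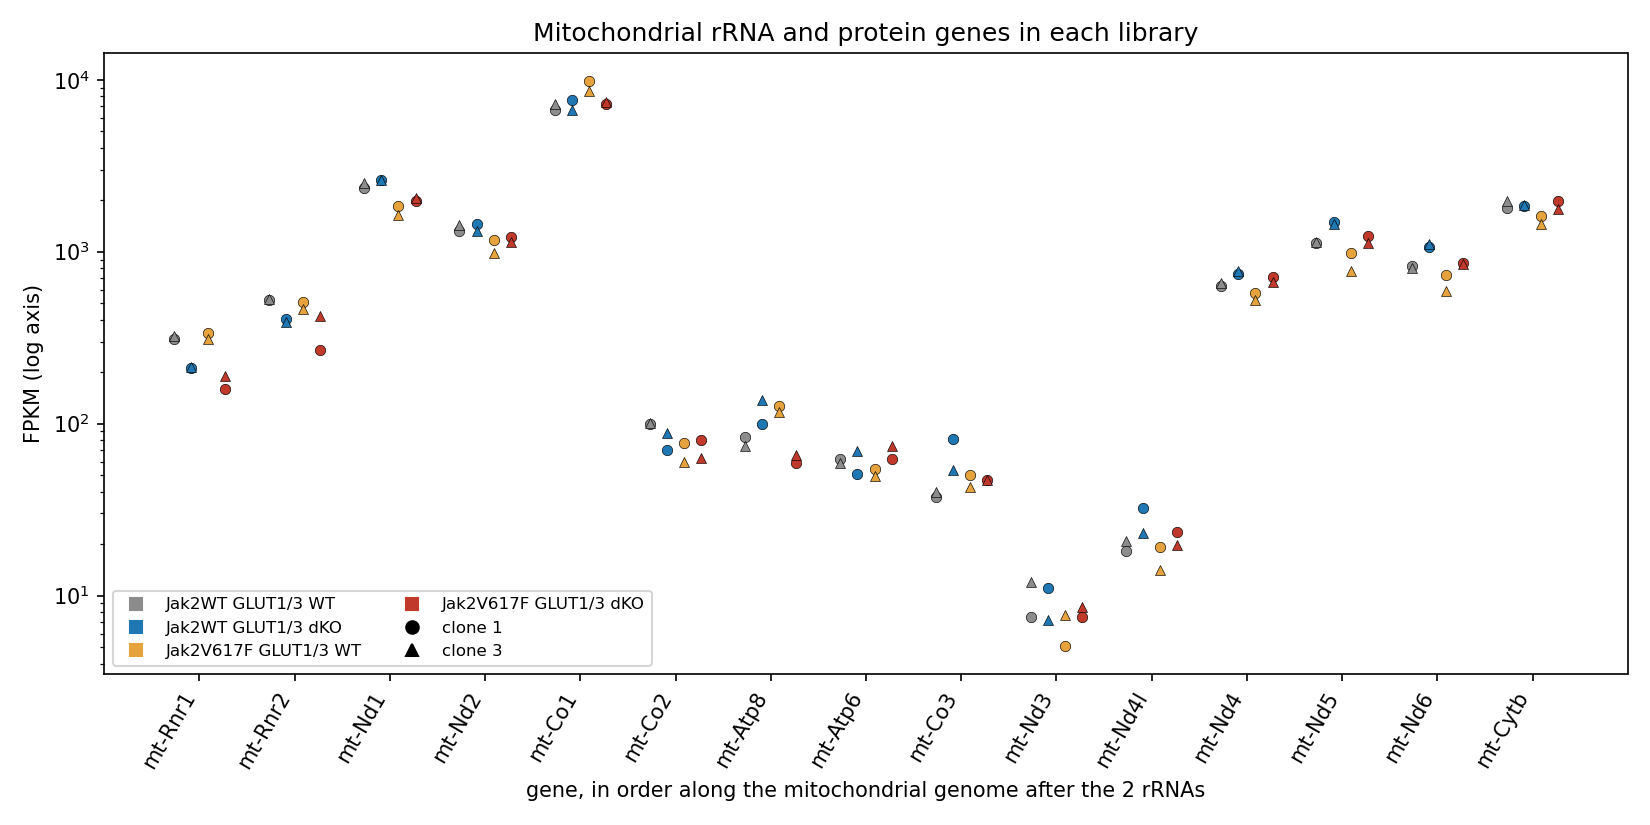
FPKM (log axis) of the 2 rRNA genes and the 13 protein genes in each of the 8 libraries, with color for the group and a circle or triangle for clones 1 and 3. The 6 low genes from mt-Co2 to mt-Nd4l stay at or below 137 FPKM in every library, and the 7 other protein genes stay at or above 526.

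The share of all recovered reads that lay on the mitochondrial genome was 2.23% ± 0.0548 (SD, n = 2) in Jak2WT GLUT1/3 WT, 2.25% ± 0.0907 in Jak2WT dKO, 2.19% ± 0.114 in Jak2V617F GLUT1/3 WT and 2.17% ± 0.0251 in Jak2V617F dKO. The 8 libraries ran from 2.11% to 2.31%, and the groups overlapped. As a share of summed FPKM, which weights reads by gene length, the genome held 6.18% ± 0.102, 6.08% ± 0.0611, 5.57% ± 0.210 and 5.69% ± 0.0925 in the same order of groups, and all 4 Jak2V617F libraries lay below all 4 Jak2WT libraries. Protein genes held 2.01% to 2.22% of the reads, rRNAs 0.0590% to 0.119% and tRNAs 0.00627% to 0.00945%. Poly(A) capture is not made to retain rRNAs and tRNAs, so these values describe captured RNA. The differences below are between single members.

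Group differences were tested with limma on log2(FPKM + 1) and adjusted by Benjamini-Hochberg over all 11818 genes tested, of which 31 were members. All 13 protein genes, both rRNAs and 16 of 22 tRNAs had passed the filter of 1 FPKM in at least 2 libraries. Loss of GLUT1/3 in Jak2WT raised 2 members and lowered 4, where 7.62% of all genes were called higher and 6.06% lower, with a median log2 fold change of -0.03 over the members and 0.01 over all genes. In Jak2V617F, 4 members were higher (13.7% of all genes) and 2 lower (16.2%), which is 6 of 31 where 29.9% of all genes were called, with medians of 0.14 and -0.02. Without Jak2V617F dKO clone 3, the median over the members turned to -0.03. With all libraries set to the same total FPKM, 7 members were higher and 2 lower there. Between the GLUT1/3 WT clones, Jak2V617F had 2 members higher (15.3%) and 6 lower (14.9%) than Jak2WT, or 8 of 31 where 30.3% of all genes were called, with medians of -0.36 and 0.01. Between the dKO clones, 0 members were higher (7.12% of all genes) and 3 lower (9.96%), where 17.1% were called in all, with medians of -0.23 and -0.02. The responses to dKO differed between backgrounds for 0 members in the higher (4.72%) and 2 in the lower direction (5.91%). Between the dKO clones at an unadjusted p under 0.05, limma gave 0 members higher and 8 lower (13.7% and 18.2% of all genes), and 11 of 31 had both Jak2V617F libraries below both Jak2WT libraries (33.1% of all genes). Comparisons that share a group of clones are not independent of each other. The comparison of the GLUT1/3 WT clones depended on scaling: with all libraries set to the same total FPKM, the median of all genes moved from 0.01 to -0.12 and the share of higher among all calls from 50.7% to 29.5%. The members called there were then 1 higher and 13 lower, with a member median of -0.52, and 2 higher and 11 lower when scaled to reads outside the mitochondrial genome. With dKO in Jak2WT the share of higher among all calls moved from 55.7% to 33.9%, and in Jak2V617F from 45.7% to 60.2%. For the difference of responses at the same total FPKM, this share moved from 44.4% to 75.0%. The members called for that difference were then 2 higher and 1 lower, so their main direction depended on scaling.

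Of the 2 rRNAs, which form the core of the mitochondrial ribosome, mt-Rnr1 was lower in the dKO clones of both backgrounds. mt-Rnr1 (12S rRNA, positions 70 to 1024, plus strand) measured 311 and 323 FPKM in clones 1 and 3 of Jak2WT GLUT1/3 WT, and 209 and 212 in those of Jak2WT dKO. In Jak2V617F it measured 334 and 309 in GLUT1/3 WT and 158 and 189 in dKO. The dKO clones lay below the GLUT1/3 WT clones of their background with no overlap, as did 32% and 34.4% of all genes in Jak2WT and Jak2V617F. The log2 fold change of mt-Rnr1 was -0.59 (SE 0.10, limma adjusted p = 0.0143) in Jak2WT and -0.89 (SE 0.10, limma adjusted p = 0.00137) in Jak2V617F. The difference between the 2 changes did not pass the test (-0.30, 95% interval -0.64 to 0.04, limma adjusted p = 0.207). In Jak2V617F the call held in all 8 fits that left out 1 library. In Jak2WT it was lost without any one of the 4 Jak2WT libraries (limma adjusted p = 0.0719 to 0.0943), at log2 fold changes of -0.62 to -0.56.

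mt-Rnr2 (16S rRNA, positions 1094 to 2675) had estimates of the same sign with more spread. Its levels were 523 and 532 FPKM in Jak2WT GLUT1/3 WT, 406 and 391.5 in Jak2WT dKO, 508 and 463 in Jak2V617F GLUT1/3 WT, and 268 and 425 in Jak2V617F dKO. Groups did not overlap within either background. The log2 fold changes of -0.40 (SE 0.19, limma adjusted p = 0.196) and -0.52 (SE 0.19, limma adjusted p = 0.0775) did not pass the test. Jak2V617F dKO clone 1, the lowest library, set much of the second value. Without this clone it was -0.19 (limma adjusted p = 0.240), and without dKO clone 3 it was -0.85 (limma adjusted p = 0.00430). Between backgrounds, neither rRNA passed the test in GLUT1/3 WT clones, with log2 fold changes of 0.02 for mt-Rnr1 (95% interval -0.22 to 0.26, with the sign turned to -0.13 at the same total FPKM) and -0.12 for mt-Rnr2 (95% interval -0.57 to 0.33).

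The 16S rRNA gene runs directly into mt-Tl1, the gene of the leucine tRNA for UUR codons. This junction is shown because a termination factor is known to bind inside the tRNA gene, at the border between the rRNAs and the first mRNA. Capitals mark the start of the tRNA.
mt-Rnr2 to mt-Tl1, positions 2646 to 2705, plus strand: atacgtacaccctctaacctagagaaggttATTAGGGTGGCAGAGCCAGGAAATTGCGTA
In these poly(A)-captured libraries mt-Nd1, the first mRNA after this junction, had a mean of 2193 FPKM and mt-Rnr2 before it 439. The ratio of mt-Tl1 to mt-Rnr2 was 0.213 ± 0.000584 in Jak2WT GLUT1/3 WT, 0.220 ± 0.00181 in Jak2WT dKO, 0.190 ± 0.0485 in Jak2V617F GLUT1/3 WT and 0.204 ± 0.0269 in Jak2V617F dKO.

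Ratios between members within a library do not depend on how libraries are scaled. The summed FPKM of mt-Rnr1 and mt-Rnr2 over that of mt-Cytb was 0.462 and 0.436 in Jak2WT GLUT1/3 WT and 0.336 and 0.321 in Jak2WT dKO. It was 0.524 and 0.533 in Jak2V617F GLUT1/3 WT and 0.217 and 0.348 in Jak2V617F dKO. Both dKO groups lay below both GLUT1/3 WT groups. These ratios are given as a description.

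**Figure D3:**
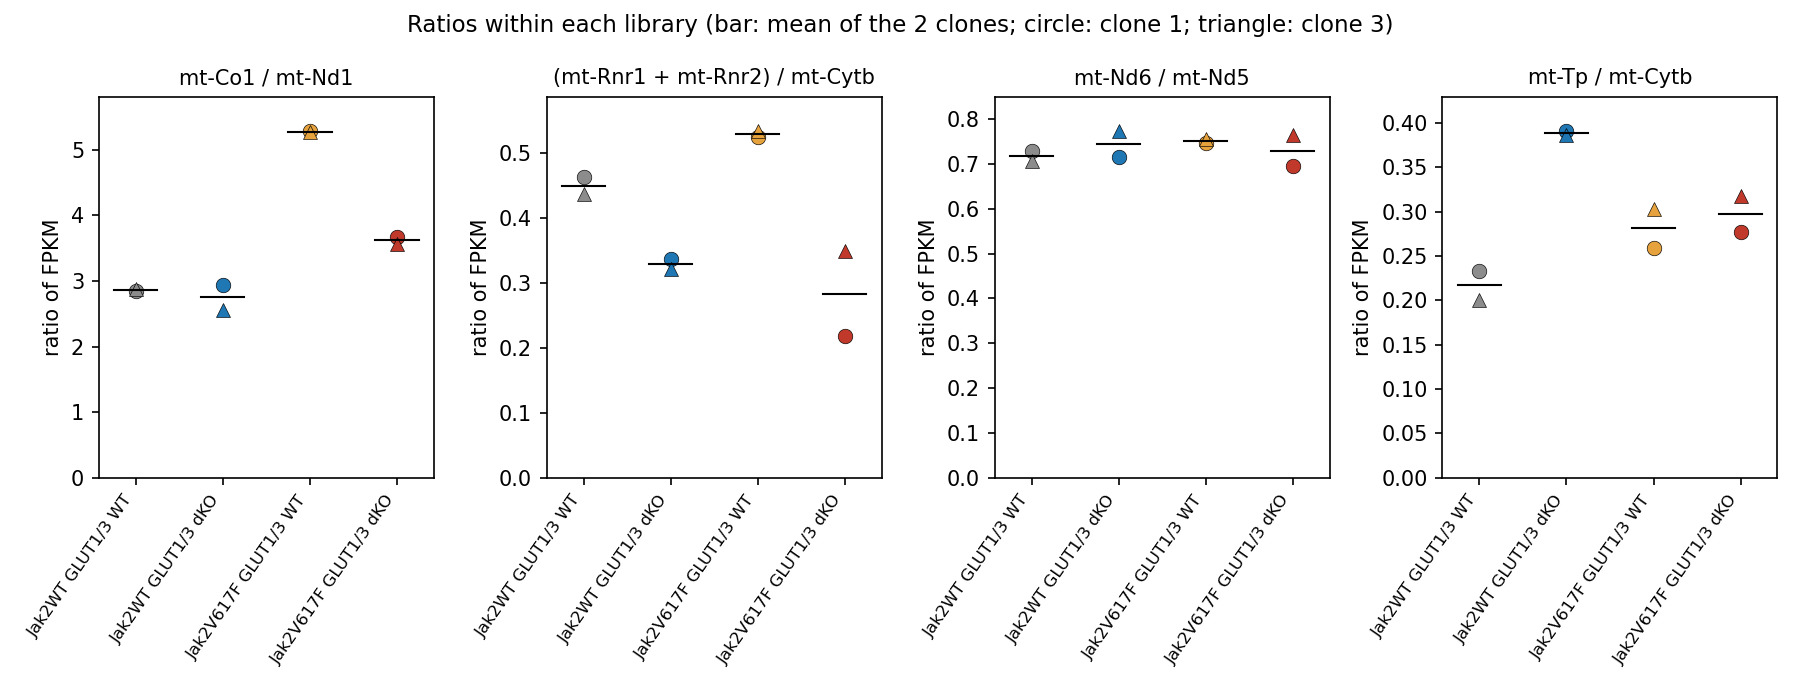
Ratios of FPKM between members within each library, with a circle for clone 1, a triangle for clone 3 and a bar for the mean of 2 clones. mt-Co1 over mt-Nd1 is highest in Jak2V617F GLUT1/3 WT (5.27 and 5.28), the rRNA ratio is lower in both dKO groups, and mt-Nd6 over mt-Nd5 stays between 0.695 and 0.773.

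Among the complex I subunits, which carry electrons from NADH into the chain, mt-Nd4, mt-Nd5 and mt-Nd6 were higher in Jak2V617F dKO than in Jak2V617F GLUT1/3 WT. mt-Nd5 (positions 11742 to 13565) measured 985 and 777 FPKM in the GLUT1/3 WT clones against 1230.0 and 1117 in dKO, a log2 fold change of 0.42 (SE 0.12, limma adjusted p = 0.0393). mt-Nd6 (positions 13552 to 14070, minus strand) measured 735 and 587 against 855 and 853, with a change of 0.38 (SE 0.11, limma adjusted p = 0.0430). mt-Nd4 (positions 10167 to 11544) measured 573 and 526 against 716 and 665, with a change of 0.33 (SE 0.09, limma adjusted p = 0.0284). In all 3 genes both dKO clones lay above both GLUT1/3 WT clones, as did 29.9% of all genes. The margins were narrow, since mt-Nd5 and mt-Nd6 kept their calls in only 1 of 8 fits that left out 1 library, the one without Jak2V617F GLUT1/3 WT clone 1, and mt-Nd4 in 3 of 8 (limma adjusted p of the calls lost = 0.0503 to 0.158).

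In Jak2WT, the same 3 genes had log2 fold changes of 0.37 for mt-Nd5, 0.42 for mt-Nd6 and 0.23 for mt-Nd4, with both dKO clones above, and none passed the test (limma adjusted p = 0.0865, 0.05005 and 0.119, with the second just above the threshold). mt-Nd5 measured 1130.2 and 1137 FPKM in Jak2WT GLUT1/3 WT and 1496 and 1441 in Jak2WT dKO. mt-Nd6 measured 823 and 804 against 1070.2 and 1114, and mt-Nd4 measured 629 and 656 against 739 and 772. mt-Nd5 and mt-Nd6 lie on opposite strands and overlap at their ends. The ratio of mt-Nd6 to mt-Nd5 was 0.707 to 0.728 in Jak2WT GLUT1/3 WT and 0.695 to 0.773 in the 6 other libraries. Whether the counting used strand is not given in the sources used here, so reads of mt-Nd6 and reads from the other strand at its place cannot be told apart.

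mt-Nd1 was lower in Jak2V617F than in Jak2WT in both pairs of groups, and mt-Nd2 in GLUT1/3 WT clones. mt-Nd1 (positions 2751 to 3707) measured 2338 and 2499 FPKM in Jak2WT GLUT1/3 WT, 2602 and 2597 in Jak2WT dKO, 1855 and 1627 in Jak2V617F GLUT1/3 WT, and 1966 and 2065 in Jak2V617F dKO. All 4 Jak2V617F libraries lay below all 4 Jak2WT libraries. The log2 fold change between backgrounds was -0.48 (SE 0.10, limma adjusted p = 0.0111) in GLUT1/3 WT clones and -0.37 (SE 0.10, limma adjusted p = 0.0423) in dKO clones. The first was lost only without Jak2WT GLUT1/3 WT clone 3 among the fits that left out 1 library (limma adjusted p = 0.0852), and the second was kept only without Jak2V617F GLUT1/3 WT clone 1 or 3 (limma adjusted p of those lost = 0.0811 to 0.171). With dKO the changes were 0.11 (95% interval -0.12 to 0.33) in Jak2WT and 0.21 (95% interval -0.02 to 0.44) in Jak2V617F, and neither passed the test.

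mt-Nd2 (positions 3914 to 4951) measured 1324 and 1434 FPKM in Jak2WT GLUT1/3 WT against 1163 and 987 in Jak2V617F GLUT1/3 WT. The change was -0.36 (SE 0.11, limma adjusted p = 0.0431). It was kept in 1 of 8 fits that left out 1 library, the one without Jak2V617F GLUT1/3 WT clone 1 (limma adjusted p of those lost = 0.0577 to 0.213). The dKO clones measured 1440.2 and 1325 in Jak2WT and 1223 and 1144 in Jak2V617F. mt-Nd3 and mt-Nd4l, both inside the nuclear copy, ranged from 5.10 to 11.9 and from 14.1 to 32.3 FPKM and passed no test.

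The complex IV subunit mt-Co1 (positions 5328 to 6872) was higher in Jak2V617F than in Jak2WT among GLUT1/3 WT clones. It measured 6674 and 7183 FPKM in Jak2WT GLUT1/3 WT and 9799 and 8576 in Jak2V617F GLUT1/3 WT, a log2 fold change of 0.40 (SE 0.12, limma adjusted p = 0.0351). At the same total FPKM this change was 0.25 (limma adjusted p = 0.0380), and the call held in 11 of 20 alternatives. In the dKO clones it measured 7656 and 6661 in Jak2WT and 7211 and 7372 in Jak2V617F, which overlapped, with a change of 0.03 (95% interval -0.24 to 0.30). Loss of GLUT1/3 changed it by 0.04 (95% interval -0.23 to 0.32, and -0.06 at the same total FPKM) in Jak2WT and by -0.33 (95% interval -0.60 to -0.06, limma adjusted p = 0.0681) in Jak2V617F, and the difference of the 2 changes did not pass the test (-0.37, limma adjusted p = 0.173). The call between backgrounds was lost in 5 of 8 fits that left out 1 library (limma adjusted p = 0.0614 to 0.179), namely without either Jak2WT GLUT1/3 WT clone, without Jak2V617F GLUT1/3 WT clone 1 and without either Jak2V617F dKO clone.

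The ratio of mt-Co1 to mt-Nd1 did not overlap between the 2 backgrounds, and it is given as a description. It was 2.86 and 2.87 in Jak2WT GLUT1/3 WT, 2.94 and 2.56 in Jak2WT dKO, 5.28 and 5.27 in Jak2V617F GLUT1/3 WT, and 3.67 and 3.57 in Jak2V617F dKO. Over mt-Cytb, mt-Co1 stood at 5.92 and 6.10 in Jak2V617F GLUT1/3 WT and at 3.54 to 4.18 in the 6 other libraries. Gm29216, the nuclear copy of the end of mt-Co1, was also higher in Jak2V617F GLUT1/3 WT than in Jak2WT GLUT1/3 WT (log2 fold change 0.62, SE 0.19, limma adjusted p = 0.0473). It held at most 0.140% of the reads of the pair. These cannot all be told apart from reads of mt-Co1, so this is not a separate observation.

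**Figure D4:**
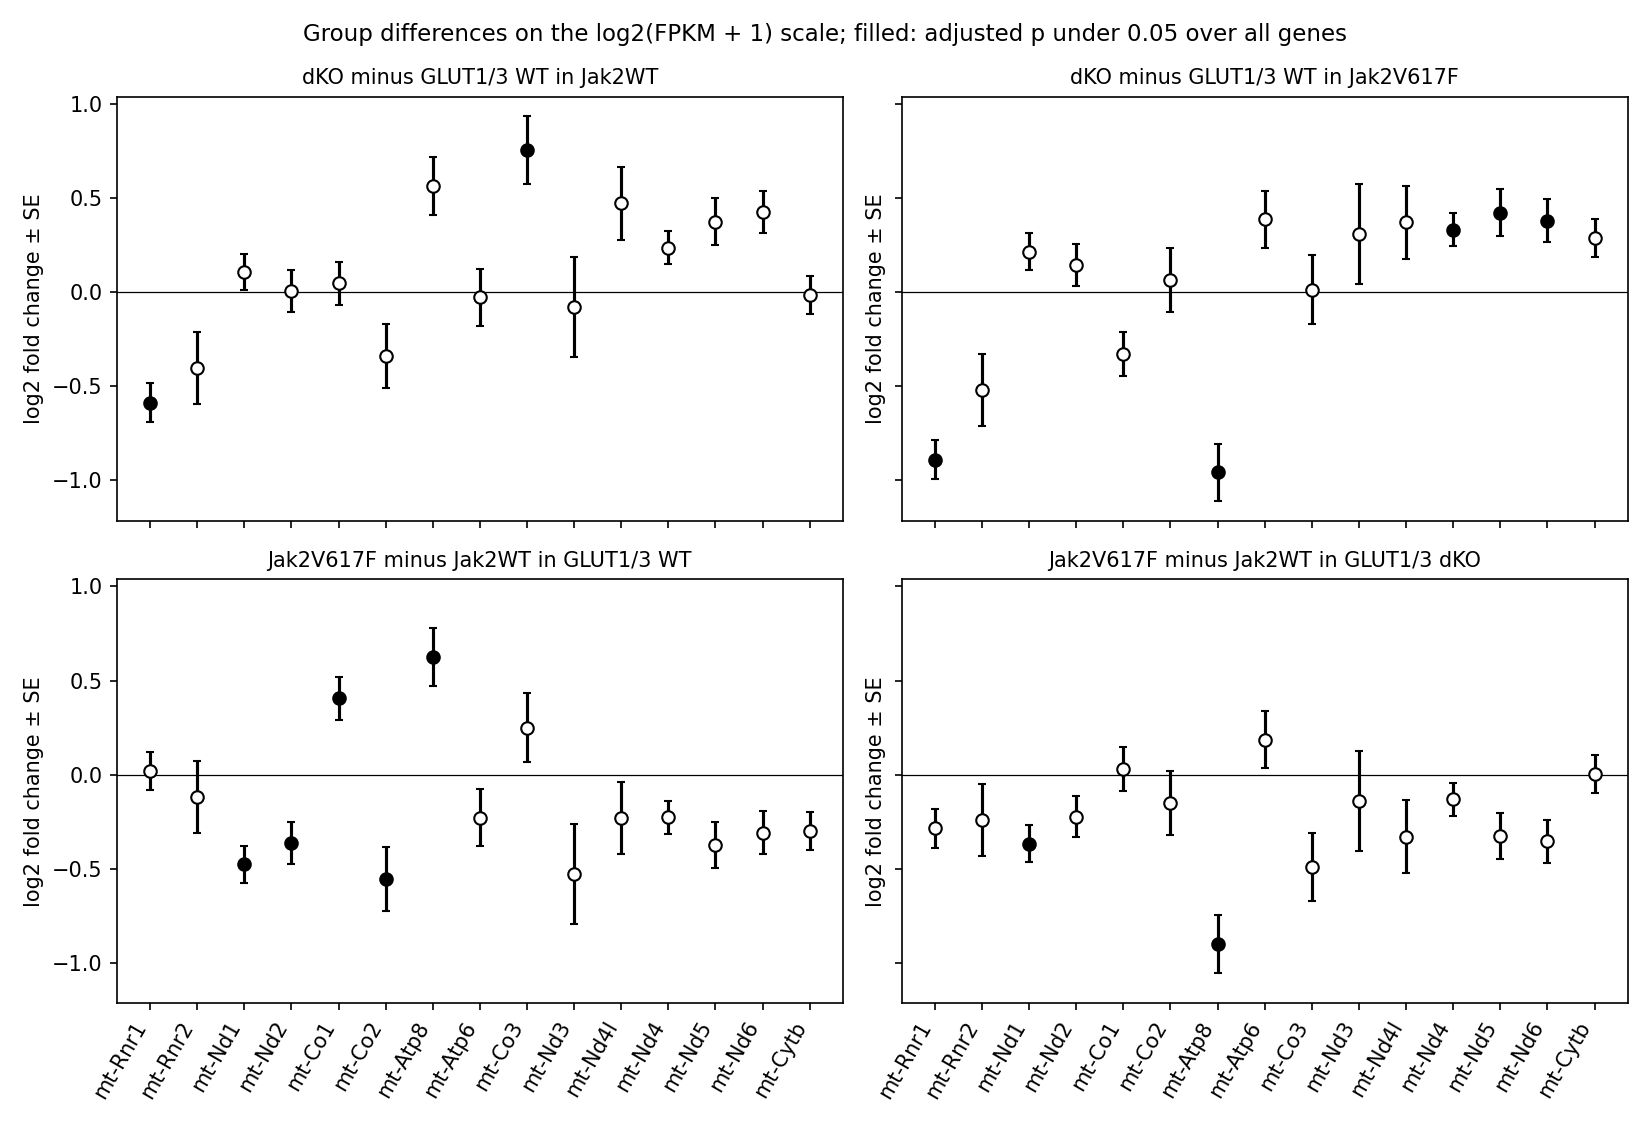
Log2 fold changes on the log2(FPKM + 1) scale with their standard errors for the 2 rRNA and 13 protein genes in the 4 comparisons of groups, with filled points for an adjusted p under 0.05. mt-Rnr1 is lower in both comparisons of dKO, and mt-Nd1 is lower in both comparisons of Jak2V617F with Jak2WT.

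mt-Co2 and mt-Co3, the other complex IV subunits, lie inside the copied stretch, and each had 1 call that was lost when its reads were summed with those of its nuclear copy. mt-Co2 measured 99.5 and 101 FPKM in Jak2WT GLUT1/3 WT against 77.3 and 59.7 in Jak2V617F GLUT1/3 WT (log2 fold change -0.55, SE 0.17, limma adjusted p = 0.0459). Summed with Gm28661, the change was -0.21 (limma adjusted p = 0.151). mt-Co3 measured 37.7 and 40.2 FPKM in Jak2WT GLUT1/3 WT against 81.8 and 53.7 in Jak2WT dKO (0.75, SE 0.18, limma adjusted p = 0.0370), and summed with Gm28437 the change was 0.48 (limma adjusted p = 0.0824). Without 1 library, the change of mt-Co2 ran from -0.74 to -0.37, and its call was lost without any 1 of the Jak2WT libraries or Jak2V617F GLUT1/3 WT clone 3 (limma adjusted p = 0.0505 to 0.195). That of mt-Co3 ran from 0.46 to 1.05, with the call lost without either Jak2WT GLUT1/3 WT clone or Jak2WT dKO clone 1 (limma adjusted p = 0.117 to 0.176). The call of mt-Nd4 above was also made for its sum with Gm28439 (0.33, limma adjusted p = 0.0278). The summed pairs of mt-Nd3 with Gm28438 (-0.65, limma adjusted p = 0.0110) and of mt-Nd4l with Gm10222 (-0.37, limma adjusted p = 0.0397) were lower in Jak2V617F GLUT1/3 WT than in Jak2WT GLUT1/3 WT. Gm28438 (-0.65, limma adjusted p = 0.00869) and Gm10222 (-0.43, limma adjusted p = 0.0319) were lower on their own, while mt-Nd3 and mt-Nd4l on their own did not pass (limma adjusted p = 0.172 and 0.402). Reads of a pair cannot all be told apart, so a gene and its copy are not separate observations.

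mt-Atp8, a small subunit of ATP synthase (positions 7766 to 7969), responded differently to dKO in the 2 backgrounds. It measured 83.8 and 74.0 FPKM in Jak2WT GLUT1/3 WT and 99.7 and 137 in Jak2WT dKO, but 127 and 117 in Jak2V617F GLUT1/3 WT and 58.8 and 65.9 in Jak2V617F dKO. The dKO clones lay above the GLUT1/3 WT clones in Jak2WT and below them in Jak2V617F, with no overlap in either. Loss of GLUT1/3 changed it by 0.56 (SE 0.15, limma adjusted p = 0.0517) in Jak2WT and by -0.96 (SE 0.15, limma adjusted p = 0.00432) in Jak2V617F, and these changes differed (-1.52, SE 0.22, limma adjusted p = 0.0130). It was the only protein gene past the test of this difference, in which 5.91% of all genes were called lower. The fall in Jak2V617F kept its call in all 8 fits that left out 1 library. The difference lost its call without Jak2WT GLUT1/3 WT clone 1 or 3 (limma adjusted p = 0.0523 and 0.0667). Between backgrounds it was higher in Jak2V617F GLUT1/3 WT (0.63, limma adjusted p = 0.0204, lost without any 1 of the 4 GLUT1/3 WT libraries at limma adjusted p = 0.0543 to 0.119) and lower in Jak2V617F dKO (-0.90, limma adjusted p = 0.00926, lost without Jak2V617F dKO clone 1 at limma adjusted p = 0.0512). None of its windows is unique, it rested on 262 to 1378 reads per library, and the part of the nuclear copy in these calls was not tested.

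mt-Atp6, the other ATP synthase subunit, overlaps mt-Atp8 and is translated from the same mRNA. Its levels were 62.4 and 59.2 FPKM in Jak2WT GLUT1/3 WT, 51.1 and 69.3 in Jak2WT dKO, 54.1 and 49.5 in Jak2V617F GLUT1/3 WT, and 62.2 and 74.0 in Jak2V617F dKO. No comparison passed the test for mt-Atp6, and in Jak2V617F the estimate with dKO was 0.38 (95% interval 0.03 to 0.74, limma adjusted p = 0.0947). Summed with its nuclear copy Gm10925, this estimate was 0.09 (limma adjusted p = 0.578). mt-Cytb ranged from 1449 to 1959.6 FPKM over the 8 libraries and passed no test either.

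The tRNA genes, of 59 to 75 bases, are shorter than one read of 150 bases, so a full-length read that touches one extends into its neighbours. Reads may be shorter after trimming, and how reads that span genes were assigned is not given in the sources used here. mt-Tp, the proline tRNA gene on the minus strand, had the highest tRNA level with a mean of 527 FPKM, followed by mt-Tn (asparagine) at 124, mt-Tc (cysteine) at 111 and mt-Tl1 at 91.3. mt-Tp is shown because its call in Jak2WT held in every alternative fit. It reads as follows on its own strand, with the anticodon in capitals.
mt-Tp, positions 15356 to 15422, minus strand: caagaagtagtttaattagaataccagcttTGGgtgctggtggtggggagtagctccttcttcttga
It lies beside 877 bases without an annotated gene, the control region, which holds the promoters. On the other side of this region, mt-Tf (phenylalanine) was listed at 0 in all 8 libraries, as were mt-Ts1 and mt-Td, and 3 reads on mt-Tf would have given 0.895 to 2.54 FPKM. mt-Tk, mt-Tg and mt-Tr had 1 to 10 reads in all and did not pass the filter. mt-Ts1, mt-Td and mt-Tk have no unique window, whereas mt-Tf has only unique ones.

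mt-Tp rose in dKO clones of both backgrounds. It measured 421 and 392.3 FPKM in Jak2WT GLUT1/3 WT and 716 and 727 in Jak2WT dKO, a log2 fold change of 0.83 (SE 0.08, limma adjusted p = 0.00354) that kept its call in all 8 fits that left out 1 library. In Jak2V617F it measured 417 and 439 against 543 and 560.4, a change of 0.37 (SE 0.08, limma adjusted p = 0.0147), which was lost without Jak2V617F GLUT1/3 WT clone 1 or Jak2V617F dKO clone 3 (limma adjusted p = 0.0582 to 0.0620). The GLUT1/3 WT clones of both backgrounds overlapped, and the Jak2V617F dKO clones lay between them and the Jak2WT dKO clones. The changes differed between backgrounds (-0.46, SE 0.11, limma adjusted p = 0.0467), but at the same total FPKM the difference was -0.27 (limma adjusted p = 0.195), and the call was lost without any 1 of the 8 libraries (limma adjusted p = 0.0713 to 0.170). Between the dKO clones mt-Tp was lower in Jak2V617F (-0.39, SE 0.08, limma adjusted p = 0.0189), with the call lost without either Jak2WT dKO clone or Jak2V617F dKO clone 1 (limma adjusted p = 0.0825 to 0.0945). Over mt-Cytb, mt-Tp stood at 0.217 ± 0.0235 in Jak2WT GLUT1/3 WT, 0.389 ± 0.00291 in Jak2WT dKO, 0.281 ± 0.0306 in Jak2V617F GLUT1/3 WT and 0.297 ± 0.0286 in Jak2V617F dKO.

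Among the tRNA genes other than mt-Tp, calls were made in 2 comparisons, with dKO in Jak2WT and between the GLUT1/3 WT clones. In Jak2WT, 9 of the 16 tRNA genes tested had both dKO libraries under both GLUT1/3 WT libraries (32% of all genes), and mt-Tp had them above (34.1%). The test was passed as lower by 3 of the 16 (6.06% of all genes). mt-Tc measured 163 and 196 FPKM against 77.4 and 101 (log2 fold change -1.01, SE 0.18, limma adjusted p = 0.0152), and mt-Ty (tyrosine) 47.5 and 41.3 against 21.9 and 18.5 (-1.10, SE 0.27, limma adjusted p = 0.0395). mt-Ts2 (serine, AGY codons) measured 66.8 and 96.7 against 42.1 and 31.0 (-1.13, SE 0.30, limma adjusted p = 0.0494). Each of these calls was lost without either Jak2WT GLUT1/3 WT clone or Jak2WT dKO clone 1, and those of mt-Ty and mt-Ts2 also without Jak2WT dKO clone 3, and mt-Ts2 also without either Jak2V617F GLUT1/3 WT clone (limma adjusted p = 0.0641 to 0.224). mt-Tw (tryptophan) and mt-Ta (alanine), of the same cluster as mt-Tc and mt-Ty, had estimates of -1.12 and -1.22 that did not pass (limma adjusted p = 0.119 and 0.127), and mt-Tn, between them, stood at 0.04 with groups that overlapped. With dKO in Jak2V617F, 0 of 16 passed the test as lower by limma (16.2% of all genes) and 1 was lower at an unadjusted p under 0.05 (23.1%). The responses of mt-Tc, mt-Ty and mt-Ts2 did not pass the test of a difference between backgrounds (limma adjusted p = 0.149, 0.569 and 0.164).

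Between the GLUT1/3 WT clones, 10 of the 16 tRNA genes were lower in both Jak2V617F clones than in both Jak2WT clones and 0 were higher in both (33.6% and 35.8% of all genes), and 3 passed the test as lower (14.9%). mt-Te (glutamate), beside mt-Nd6 on the same strand, measured 21.2 and 25.1 FPKM in Jak2WT and 7.44 and 5.83 in Jak2V617F. Its log2 fold change of -1.66 (SE 0.31, limma adjusted p = 0.00725) kept its call in all 8 fits that left out 1 library, on 11 to 65 reads per library. mt-Th (histidine) measured 69.0 and 98.9 against 34.1 and 48.6 (-1.002, SE 0.23, limma adjusted p = 0.0166), and mt-Tc 163 and 196 against 107 and 90.0 (-0.86, SE 0.18, limma adjusted p = 0.0116). Both were lost without Jak2WT GLUT1/3 WT clone 3, mt-Th also without Jak2V617F GLUT1/3 WT clone 1 and mt-Tc also without clone 3 of that group (limma adjusted p = 0.0592 to 0.0971). In the dKO clones, mt-Te measured 8.63 and 19.1 in Jak2WT and 12.9 and 11.5 in Jak2V617F, which overlapped. The other tRNA genes tested, mt-Tl1, mt-Tl2, mt-Tq, mt-Ti, mt-Tm, mt-Tt and mt-Tv, passed no test. mt-Tv, mt-Ti and mt-Tm held no more than 16 reads in any library.

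**Figure D5:**
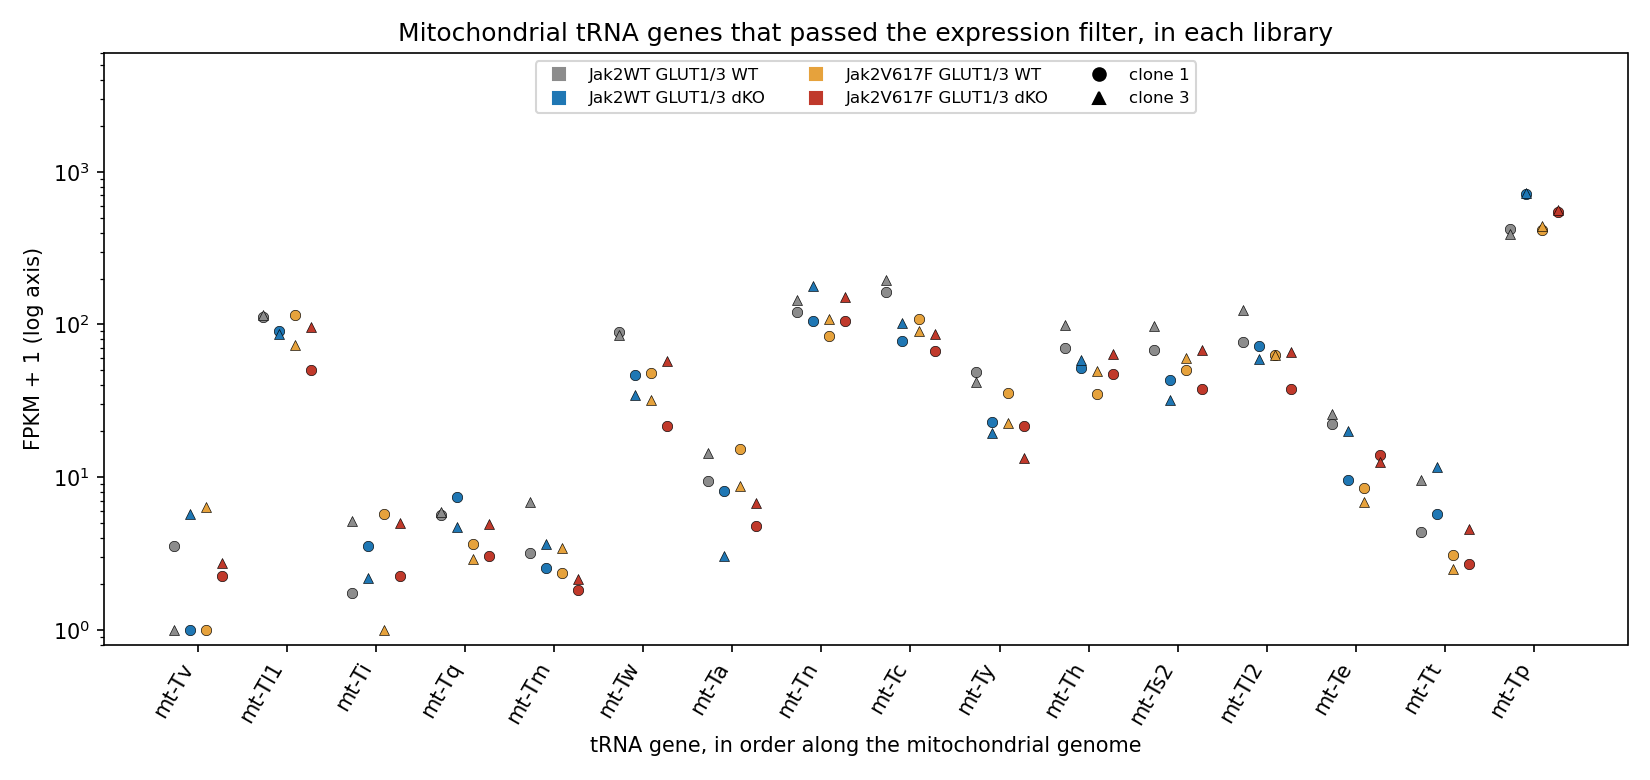
FPKM + 1 (log axis) of the 16 tRNA genes that passed the expression filter in each of the 8 libraries, colored by group, with circles and triangles for clones 1 and 3. mt-Tp is the highest in every library and stands apart in the Jak2WT dKO clones (716 and 727 FPKM), and mt-Te is lowest in Jak2V617F GLUT1/3 WT.

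The nuclear genes that copy, process and translate these RNAs were read from lists that had been chosen with results of these data known. Of 11 genes of mitochondrial transcription, 0 were called by limma with dKO in Jak2WT (2 higher and 1 lower at an unadjusted p under 0.05, against 16.8% and 14.8% of all genes), and 2 were higher with dKO in Jak2V617F (13.7% of all genes). The first was Tfam, which packages the genome and starts transcription, with 15.5 and 14.2 FPKM in Jak2V617F GLUT1/3 WT and 19.4 and 20.3 in dKO (log2 fold change 0.40, limma adjusted p = 0.0185, lost without Jak2V617F GLUT1/3 WT clone 3 or Jak2V617F dKO clone 3 at limma adjusted p = 0.0633 to 0.0794). The second was Mrpl12, a ribosomal protein that also binds the RNA polymerase (log2 fold change 0.45, limma adjusted p = 0.0446), whose call was lost in 7 of 8 fits that left out 1 library, all but that without Jak2V617F GLUT1/3 WT clone 1. Polrmt, the RNA polymerase, changed by 0.13 (95% interval -0.07 to 0.33) in Jak2WT and 0.18 (95% interval -0.02 to 0.38) in Jak2V617F, and passed no test. Lrpprc, which stabilises mitochondrial mRNAs, changed by -0.10 (95% interval -0.28 to 0.08) and 0.13 (95% interval -0.05 to 0.31), and passed none.

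Of 27 genes of mitochondrial RNA processing and stability, 4 were higher and 0 lower with dKO in Jak2WT (7.62% and 6.06% of all genes), and 3 were higher and 3 lower in Jak2V617F (13.7% and 16.2%). Grsf1, a protein of mitochondrial RNA granules, measured 51.4 and 44.4 FPKM in Jak2V617F GLUT1/3 WT and 26.5 and 27.4 in dKO (-0.80, SE 0.09, limma adjusted p = 0.00122). Of 16 genes of mtDNA replication and maintenance, 2 were higher and 2 lower in Jak2WT, and 1 was higher and 2 lower in Jak2V617F, against the same shares of all genes. Lonp1, the matrix protease that also degrades Tfam, was lower with dKO in Jak2V617F (71.0 and 69.9 against 35.3 and 37.1 FPKM, -0.94, SE 0.08, limma adjusted p = 0.000544), while Dna2, a nuclease and helicase with roles in both genomes, was higher (4.95 and 4.15 against 13.3 and 15.6 FPKM, 1.47, SE 0.12, limma adjusted p = 0.000528). Of 7 regulators of mitochondrial biogenesis tested, 2 were higher and 3 lower in Jak2V617F between the GLUT1/3 WT clones (15.3% and 14.9% of all genes), among them Gabpb1 (0.51, limma adjusted p = 0.00980, lost without Jak2WT GLUT1/3 WT clone 1 at limma adjusted p = 0.0650) and Gabpa (-0.43, limma adjusted p = 0.0173, lost without either Jak2WT GLUT1/3 WT clone or Jak2V617F GLUT1/3 WT clone 1 at limma adjusted p = 0.0649 to 0.107), which form 1 transcription factor. With dKO, 1 was called in each background. Pprc1 was higher with dKO in Jak2WT (0.57, limma adjusted p = 0.00956, lost without any 1 of the 4 Jak2WT libraries). Esrra was lower with dKO in Jak2V617F (-0.47, limma adjusted p = 0.00679, with the call kept in 18 of 19 alternatives). The calls of Grsf1, Lonp1 and Dna2 held in all 8 fits that left out 1 library.

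The mitochondrial ribosomal proteins, partners of the rRNAs, had calls in both directions at shares near or below those of all genes. Of 78 mitochondrial ribosomal proteins tested, 4 were higher and 2 lower with dKO in Jak2WT (7.62% and 6.06% of all genes), and 12 were higher and 7 lower in Jak2V617F (13.7% and 16.2%), with medians of 0.04 and -0.02 against 0.01 and -0.02 over all genes. Dap3 of the small subunit measured 26.6 and 24.9 FPKM in Jak2V617F GLUT1/3 WT and 14.7 and 15.98 in dKO (log2 fold change -0.71, SE 0.09, limma adjusted p = 0.00187). Mrpl24 of the large subunit was lower as well (44.9 and 41.0 against 22.1 and 25.8 FPKM, -0.82, SE 0.11, limma adjusted p = 0.00199), while Mrpl40 was higher (11.5 and 10.6 against 20.5 and 18.3 FPKM, 0.76, SE 0.09, limma adjusted p = 0.00158). Of 14 translation factors, 0 were higher and 1 lower with dKO in Jak2WT, and 1 was higher and 3 lower in Jak2V617F, against the same shares of all genes. The 3 included Oxa1l, which inserts the mitochondrial proteins into the inner membrane (-0.61, SE 0.08, limma adjusted p = 0.00209). Between the GLUT1/3 WT clones Tufm, the elongation factor that brings tRNAs to the ribosome, was lower in Jak2V617F (35.6 and 40.4 against 24.5 and 20.7 FPKM, -0.73, SE 0.11, limma adjusted p = 0.00316).

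The nuclear subunits of the complexes that the 13 mitochondrial proteins join were lower more often than higher with dKO in Jak2V617F. Of 78 tested, 24 were lower and 3 higher there, with a median of -0.20 against -0.02 over all genes, where 16.2% and 13.7% of all genes were called. In Jak2WT, 3 were lower and 3 higher (6.06% and 7.62% of all genes), with a median of -0.08. Between the GLUT1/3 WT clones, 11 were higher and 7 lower in Jak2V617F (15.3% and 14.9% of all genes), and between the dKO clones 1 was higher and 4 lower (7.12% and 9.96%). Atp5j, a peripheral subunit of ATP synthase, measured 34.0 and 36.3 FPKM in Jak2WT GLUT1/3 WT and 18.5 and 16.7 in Jak2V617F GLUT1/3 WT (-0.96, SE 0.09, limma adjusted p = 0.000584). Ndufv3 of complex I was lower with dKO in Jak2WT (23.9 and 22.5 against 12.1 and 12.6 FPKM, -0.86, SE 0.11, limma adjusted p = 0.00689, lost without either Jak2WT GLUT1/3 WT clone or Jak2WT dKO clone 1 at limma adjusted p = 0.0509 to 0.0600).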

How the data were processed

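Poly(A)-captured RNA of 8 libraries from 32D clones was sequenced as paired reads of 150 bases. The authors deposited FPKM values per gene. The submitters' processing notes name the build mm39, featureCounts 2.0.6 for counting, fastp 1.0.1 for read trimming and HISAT2 2.2.1 for alignment. The annotation version, strand setting, treatment of reads with several places and the total behind FPKM are not given in the sources used here, and each could change the values of members with a nuclear copy or an overlapping gene. Reads were recovered as whole multiples of the smallest step of FPKM times gene length (100% of values whole within 0.01), which gave 16846011 to 48884329 reads per library.

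Group means were fitted with limma 3.58.1 (R 4.3.3) on log2(FPKM + 1), with a variance trend, over 11818 genes with at least 1 FPKM in at least 2 libraries. Tests were two-sided with Benjamini-Hochberg adjustment over all of these genes, at a threshold of 0.05. The fit had 4 residual degrees of freedom and was tested on simulated data. A fold change on this scale understates that of low genes. All 37 members were named, and of the nuclear lists at most the 4 genes past the threshold with the largest absolute log2 fold change per list, plus Tfam, Polrmt and Lrpprc. The members and lists were chosen with earlier results of these data known. Nuclear copies were found with BLAST 2.17.0 and samtools 1.23.1 in GRCm39. Figures were drawn with matplotlib 3.10.9. Alternatives changed the pseudocount, filter, trend, scaling, model, replicate block and libraries, and 1 added after the data were seen summed each gene with its nuclear copy. With 2 clones per group, same-numbered clones share only a number.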

Additional observations from a re-analysis of the deposited data

Results flagged for a closer look

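No window of mt-Atp8 is unique in the reference, and the part of the nuclear copy in its values was not tested. The response of mt-Atp8 to loss of GLUT1/3 differed between the backgrounds by -1.52 on the log2 scale (Jak2V617F minus Jak2WT, 95% interval -2.03 to -1.02, limma adjusted p = 0.0130). It was lost without Jak2WT GLUT1/3 WT clone 1 or 3, at limma adjusted p = 0.0523 and 0.0667. The response of mt-Tp differed by -0.46 (95% interval -0.73 to -0.19, limma adjusted p = 0.0467), and the call was lost in each of the 8 fits that left out 1 library, at limma adjusted p = 0.0713 to 0.170.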

How the results depend on the processing

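The calls of mt-Tp with dKO in Jak2WT, of mt-Rnr1 and mt-Atp8 with dKO in Jak2V617F and of mt-Te between GLUT1/3 WT clones held in all 19 alternatives. In none of these was mt-Atp8 summed with a nuclear copy. The number of members called, in the order dKO in Jak2WT, dKO in Jak2V617F, Jak2V617F in GLUT1/3 WT, Jak2V617F in dKO and the difference of responses, was 6, 6, 8, 3 and 2. Without the filter on low values it was 1, 2, 1, 1 and 0, over 25788 genes tested. With voom on recovered reads, dKO in Jak2V617F gave 11 and Jak2V617F in dKO 5. A fit of only the 2 groups compared gave 3 and 1 for these. For Jak2V617F in GLUT1/3 WT, the same total FPKM gave 14 and scaling to reads outside the mitochondrial genome 13. The difference of responses gave 1 with a pseudocount of 0.1, without the trend and with median ratio scaling. Leaving out 1 library gave 1 to 8, 3 to 6, 1 to 8, 0 to 4 and 0 to 3. The low ends came without either Jak2WT GLUT1/3 WT clone for the first, second and last, without Jak2WT GLUT1/3 WT clone 3 for the third and without Jak2V617F dKO clone 1 for the fourth. The cause of these moves was not tested.

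Same-numbered clones correlated at -0.25 to 0.15 over the 6 pairs of groups, and a replicate block of clone number gave 7, 6, 9, 2 and 2 calls. The estimate for mt-Co1 with dKO in Jak2WT turned sign to -0.0551 at the same total FPKM, -0.0166 when scaled to reads outside the mitochondrial genome and -0.0176 with voom, and ran from -0.0558 without Jak2WT dKO clone 1 to 0.145 without clone 3 of that group (-0.00852 without Jak2WT GLUT1/3 WT clone 1). That for mt-Rnr1 between GLUT1/3 WT clones turned to -0.135, -0.0903 and -0.0904 under these scalings, and with 1 library left out it was lowest at -0.0362 and highest at 0.0745, when Jak2V617F GLUT1/3 WT clone 1 and clone 3 were dropped (-0.00754 without Jak2WT GLUT1/3 WT clone 1). Between dKO clones, mt-Co1 ran from -0.0704 without Jak2WT dKO clone 3 to 0.130 without clone 1, and mt-Rnr2 from -0.572 without Jak2V617F dKO clone 3 to 0.0917 without clone 1. None of these 4 results had passed the test. Over single genes, 79 of 793 estimates lost a call and 13 gained one where all libraries were kept, and 145 of 576 lost and 8 gained one where 1 library was left out.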

Other observations

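The nuclear genes whose log2 level followed the mean log2 level of the mitochondrial mRNAs most closely over the 8 libraries were Syncrip (Pearson r = 0.982), 3110082I17Rik (r = 0.982), Srd5a3 (r = 0.979), Mgat2 (r = 0.977) and Dhrs4 (r = 0.976). These are the highest values among all genes tested, the 8 libraries fall into 4 groups, and the values are given as a description.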
